A study of Mus musculus with 15 samples.

Results

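The genes described here encode the matrix metalloproteinases (Mmp), the ADAMTS proteases and the tissue inhibitors of metalloproteinases (Timp) in mouse mammary tumours. Members were all genes whose name on the array was Mmp, Adamts or Timp followed by its number, which gave 46 genes (23 Mmp, 19 Adamts and 4 Timp) among 56605 distinct non-control probes, 91 of them for these genes. Of the 46, 34 were measured well enough to be tested (15 Mmp, 15 Adamts and 4 Timp), among 22342 tested genes in all. The tumours arose in MMTV-PyMT mice, in which the mouse mammary tumour virus promoter drives the polyoma middle T oncogene in mammary epithelium, and all mice were 20 weeks old. There were 7 tumours from mice on the Wsh background and 8 from mice on the B6 background, and both groups carried the transgene. Wsh is the usual name of mice with the Kit W-sh allele, an inversion beside Kit on chromosome 5, which lack mast cells as adults. The series asks how mast cells act on breast cancer cells, but the backgrounds differ in the Kit allele and in any linked DNA as well as in mast cells, and these cannot be told apart. Each sample was 1 tumour on 1 array with 1 colour. Whether any tumours came from the same mouse is not in the labels, and p-values reflect only how much these samples vary.

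Matrix metalloproteinases are zinc-dependent enzymes that are made as inactive precursors and cut collagens, gelatin, elastin, proteoglycans and many signalling proteins once their propeptide is removed. ADAMTS proteases are secreted relatives with thrombospondin repeats, which cut large proteoglycans, trim procollagens or process other matrix proteins, and TIMPs bind the active site of these enzymes and block it. In mammary tumours many of these genes are known to be expressed by stromal cells as well as by epithelium. Mast cell chymases are known to activate Mmp2 and Mmp9 precursors in mice, a step at the protein level that RNA arrays do not measure.

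The arrays matched their labels for Kit and Mcpt4. Kit was lower in Wsh tumours (log2 difference -2.65, SE 0.28, limma adjusted p = 0.000208). The chymase gene Mcpt4, which mast cells express, was detected on 0 of 7 Wsh arrays and on 8 of 8 B6 arrays. Of 7 measured mast cell markers, 3 were lower in Wsh at a limma adjusted p under 0.05. Cpa3 was not (difference -4.71, limma adjusted p = 0.0713). Nor were Tpsb2 (-0.91), Fcer1a (-0.26) and Hdc (0.38), with limma adjusted p of 0.501, 0.769 and 0.873. Those 3 genes were above background on all 7 Wsh arrays. The 75th percentile of the processed signal was 3550 to 4582 on Wsh arrays and 3328 to 6406 on B6 arrays, and precision is limited by how many arrays there were. Skeletal muscle transcripts were high on 4 Wsh arrays (replicates 1, 3, 4 and 5) and on 1 B6 array (replicate 4), and the mean of the 10 measured of 12 muscle markers ranged from -4.17 to 4.88 in Wsh and from -4.25 to 1.66 in B6. Keratinocyte and squamous markers (5 of 10 measured, with Ivl well above background on no array) were highest in Wsh replicate 2, at a mean of 0.27, against -2.61 to -1.85 on all other arrays. Every level is a log2 signal from which the array's own 75th percentile was subtracted, so that a level of 0 equals that percentile's signal. Each difference is Wsh minus B6 and carries the standard error (SE) from limma. Levels of different genes come from different probes and were not compared with each other. In whole tumours, fewer cells of a type and less RNA per cell cannot be told apart.

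Of the 46 genes, 5 were well above background on none of the 15 arrays. These were the collagenases Mmp1a and Mmp1b, the stromelysin Mmp10, the enamel protease Mmp20 (enamelysin) and the membrane-type Mmp24. A further 7 were above background on 1 to 6 arrays and were not tested. Mmp8, the neutrophil collagenase, was the most often seen of these in Wsh, on 4 of 7 Wsh arrays and 2 of 8 B6 arrays, with means of -4.63 and -6.02 in Wsh and B6. Mmp27 was above background on 2 Wsh and 4 B6 arrays, Mmp21 on 1 and 0, Adamts13, the protease that cuts von Willebrand factor, on 1 and 1, Adamts16 on 1 and 3, Adamts19 on 2 and 0, and Adamts20 on 2 and 1. The main probe of 26 of the 34 tested genes was well above background on all 15 arrays. The other 8 were detected on 7 to 14 arrays, and their low values are the least certain ones. No spot of any of these genes was saturated.

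**Figure D1:**
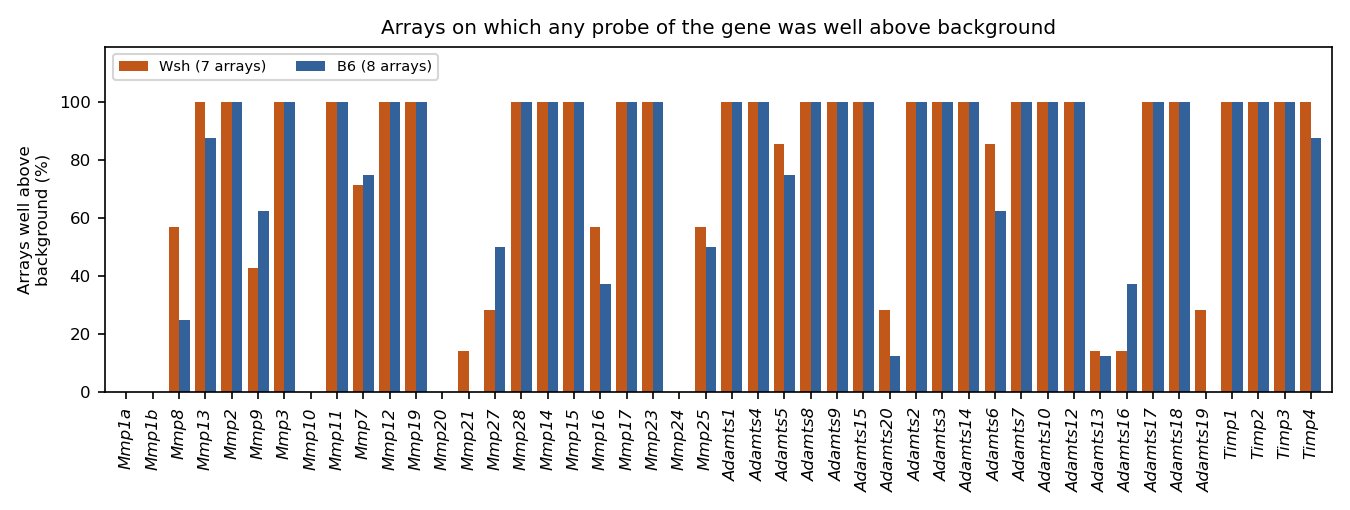
Share of arrays (percent) on which any probe of the gene was well above background, for each of the 46 genes ordered by role, with Wsh bars (7 arrays) left of B6 bars (8 arrays). Mmp1a, Mmp1b, Mmp10, Mmp20 and Mmp24 have no bar because no array showed them above background.

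Many of the secreted Mmp genes lie side by side on chromosome 9, and their promoters are shown here because the block holds both genes detected on every array and genes detected on none. RefSeq windows of 300 bases (250 before to 50 after the annotated start, build GRCm38.p6) were found for 32 of the 46 genes, in 35 windows. The windows of Mmp13, Mmp12, Mmp1b, Mmp3, Mmp1a, Mmp10, Mmp8, Mmp27, Mmp20 and Mmp7 fell, in that order, within chr9:7272264-7692390, a stretch of 420.1 kb. Of these 10 genes, 4 were tested (Mmp3, Mmp7, Mmp12 and Mmp13) and 6 were not. These 10 genes had 12 windows. The AP-1 motif TGANTCA was found on either strand in 8 of the 12 windows (8 of the 10 genes). It was in 0 of the 23 windows of the other members and in 7.81% of all 32851 RefSeq windows of that length. The TATA motif TATAAA was in 9 of the 12 windows (9 genes), against 13.62% of all windows. The ETS motif AGGAAG was in 8 of the 12 (7 genes), against 35.35% of all windows. No AP-1 match shared a base with a match of the other motifs. The following are the 130 bases just before the annotated start of 5 of these genes, 5′ to 3′ on the plus strand, with the AP-1 match in capitals. They are the 4 tested genes of the block and Mmp10, which was detected on no array although its window holds the same letters as that of Mmp3. The stretches are chr9:7272384-7272513 for Mmp13, chr9:7347244-7347373 for Mmp12 (the second of its windows), chr9:7445692-7445821 for Mmp3, chr9:7502212-7502341 for Mmp10 and chr9:7691960-7692089 for Mmp7 (the first of its windows).
Mmp13: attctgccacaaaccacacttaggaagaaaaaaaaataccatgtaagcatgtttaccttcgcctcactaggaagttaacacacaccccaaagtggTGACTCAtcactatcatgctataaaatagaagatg
Mmp12: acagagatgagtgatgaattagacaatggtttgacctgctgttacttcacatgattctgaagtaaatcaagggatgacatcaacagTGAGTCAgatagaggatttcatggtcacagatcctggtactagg
Mmp3: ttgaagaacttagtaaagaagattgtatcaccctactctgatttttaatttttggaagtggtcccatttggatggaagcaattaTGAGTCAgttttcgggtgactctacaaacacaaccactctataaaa
Mmp10: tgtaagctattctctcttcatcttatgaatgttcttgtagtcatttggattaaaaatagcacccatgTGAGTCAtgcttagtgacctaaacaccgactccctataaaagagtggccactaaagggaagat
Mmp7: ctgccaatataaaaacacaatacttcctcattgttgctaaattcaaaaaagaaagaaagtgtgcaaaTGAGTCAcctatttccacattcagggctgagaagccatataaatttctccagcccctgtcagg
The match began at position -35 for Mmp13, -44 for Mmp12, -46 for Mmp3 and -63 for both Mmp10 and Mmp7, counted from the annotated start. These matches are letters in a window and not measured sites.

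None of the 34 tested genes passed the threshold of an adjusted p of 0.05 over all genes in limma, where 75 of 22342 genes did (0.336%, of which 0.107% were higher and 0.228% lower in Wsh). At an unadjusted limma p under 0.05 there were 4 of 34 (11.8%), against 10.4% of all genes. Adamts10 had the lower mean in Wsh (1 of 34, against 5.71% of all genes), and Mmp12, Timp4 and Adamts6 had the higher mean (3 of 34, against 4.66%). For none of the 34 did the Wsh and B6 arrays separate without overlap, against 0.358% of all genes. The difference was above 0 for 21 of 34 (61.8%, against 48.2% of all genes), and its median was 0.12 over the 34 and -0.01 over all genes. The sign often depended on the probe: of the 15 tested genes with several kept probes, 9 had kept probes on both sides of 0. A difference of at least 0.5 in either direction was seen for 6 of 34 (17.6%, against 8.71%). By family, the median difference was 0.18 for Mmp (10 of 15 above 0), 0.08 for Adamts (8 of 15) and 0.20 for Timp (3 of 4).

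**Figure D2:**
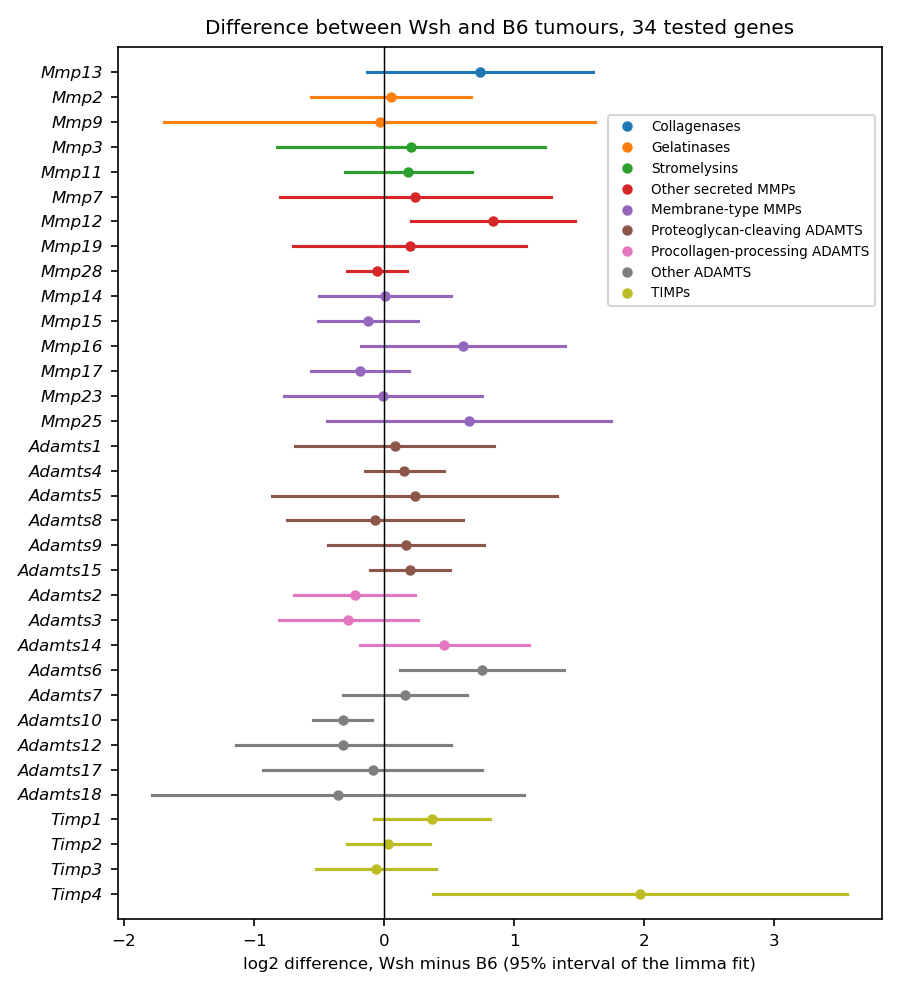
Log2 difference, Wsh minus B6, of each of the 34 tested genes with the 95% interval of the limma fit, grouped and coloured by role. The intervals of Adamts10, Mmp12, Timp4 and Adamts6 lie on one side of 0 before adjustment, Timp4 has the highest difference (1.97), and Mmp9, Timp4 and Adamts18 have the widest intervals.

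Among the collagenases, which cut fibrillar collagen, only Mmp13 was tested. Its level in Wsh tumours ran from -3.75 to -1.01 with a median of -2.83, and in B6 tumours from -5.06 to -2.61 with a median of -3.18. The ranges overlapped, with 1 Wsh array (replicate 2) above every B6 array and 2 B6 arrays below every Wsh array. The difference was 0.73 (SE 0.41, limma adjusted p = 0.575). Wsh replicate 2, the array with the highest keratinocyte markers, had the highest Mmp13 (-1.01, next -2.63), and without it the difference was 0.45. The part of the keratinocyte markers in that value was not tested.

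The gelatinases, which cut denatured collagen and basement membrane collagen, had small differences in their means. Mmp2 averaged 1.23 ± 0.60 in Wsh tumours (SD, n = 7) and 1.17 ± 0.59 in B6 tumours (SD, n = 8), a difference of 0.05 (95% interval -0.56 to 0.67, limma adjusted p = 0.972). Mmp9 was above background on 3 Wsh and 5 B6 arrays with its main probe. It ran from -6.66 to -2.04 in Wsh (median -5.65) and from -7.13 to -2.85 in B6 (median -5.30). Both groups held arrays with Mmp9 at background and arrays with clear signal. The difference was -0.04 with a 95% interval of -1.69 to 1.62, so that these arrays could not place Mmp9 to better than this range in either direction. Its other kept probe gave -0.40 and correlated with the main one (r = 0.95 over the 15 arrays).

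Of the stromelysins, Mmp3, which cuts proteoglycans, laminin and other matrix proteins, and Mmp11 were tested. Mmp3 ran from 0.49 to 2.72 in Wsh (median 0.83) and from -0.56 to 2.52 in B6 (median 1.31). The Wsh range lay within the B6 range except for replicate 1, at 2.72 with the next Wsh array at 1.34, while 3 B6 arrays (replicates 3, 5 and 8) were below every Wsh array. The difference of the means was 0.20 (SE 0.49, limma adjusted p = 0.932) although the Wsh median was the lower one. Mmp11, known from tumour fibroblasts, had levels of -1.29, -0.89 and -0.20 (lowest, median and highest) in Wsh and -1.50, -1.10 and 0.21 in B6, a difference of 0.18 (SE 0.23, limma adjusted p = 0.846).

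Mmp12, the macrophage metalloelastase, had the smallest p of the Mmp genes. Its level was -2.33 at the lowest, -1.65 at the median and -0.02 at the highest in Wsh tumours, against -2.99, -2.33 and -1.91 in B6 tumours. Of the Wsh arrays, 4 lay above every B6 array, and the other 3 lay within the B6 range. The mean was 1.79-fold higher in Wsh (log2 difference 0.84, SE 0.30, 95% interval 0.20 to 1.47), with an unadjusted limma p of 0.0129 and a limma adjusted p of 0.319. A further probe gave 0.92. Without Wsh replicate 2 the difference was 0.58 (limma adjusted p = 0.424), and leaving out the 5 arrays high in skeletal muscle transcripts gave 1.57 (limma adjusted p = 0.149). Macrophage markers (12 of 12 measured) ranged from 0.46 to 1.63 in Wsh and from -0.25 to 1.57 in B6, and Mmp12 correlated with their mean at r = -0.06 (rho = -0.05, permutation p = 0.84 and 0.87, r = -0.25 and 0.23 within slides 1 and 2, r = -0.06 without B6 replicates 3 and 4).

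For the remaining secreted Mmp genes the groups overlapped. Mmp7 (matrilysin) was above background on 5 Wsh and 6 B6 arrays and had a difference of 0.24 (SE 0.49, limma adjusted p = 0.920), with Wsh replicate 2 highest at -2.09 and a difference of -0.12 without it. Mmp19 had a difference of 0.20 (SE 0.42) and Mmp28 (epilysin) one of -0.05 (SE 0.11). Mmp28 was among the most even of these genes, with all 15 arrays within 1.53-fold of each other.

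Membrane-type Mmp genes encode enzymes held at the cell surface, and 6 of 7 were tested. Mmp14, which activates the Mmp2 precursor, averaged -0.67 ± 0.54 in Wsh tumours (SD, n = 7) and -0.68 ± 0.44 in B6 tumours (SD, n = 8), a difference of 0.01 with a 95% interval of -0.50 to 0.52. Mmp15 had a difference of -0.12, Mmp17 of -0.19 and Mmp23 of -0.01, with limma adjusted p between 0.784 and 0.998. Mmp16 and Mmp25 had higher means in Wsh, by 0.60 (SE 0.37, limma adjusted p = 0.622) and 0.65 (SE 0.51, limma adjusted p = 0.726). Without Wsh replicate 5 the Mmp16 difference was 0.34. The Mmp25 difference was 0.25 without Wsh replicate 4, 0.41 without B6 replicate 5 and 0.98 without Wsh replicate 2. Both were near background, Mmp16 on 4 Wsh and 3 B6 arrays above it and Mmp25 on 4 and 4, and the ranges of the groups overlapped.

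Of the proteoglycan-cleaving ADAMTS genes, 6 of 7 were tested and 5 had a difference above 0. None was past an unadjusted p of 0.05. Adamts4 and Adamts5, the main aggrecanases, had differences of 0.15 (SE 0.14) and 0.23 (SE 0.51). Adamts1, which cuts versican and aggrecan, averaged 0.31 ± 0.74 in Wsh (SD, n = 7) and 0.22 ± 0.75 in B6 (SD, n = 8). Adamts15 had a difference of 0.20, Adamts9 of 0.17 and Adamts8 of -0.07. The other kept Adamts9 probes gave -0.03, 0.56 and 0.39. The limma adjusted p of these 6 ran from 0.702 (Adamts15) to 0.966 (Adamts1 and Adamts8).

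Procollagen-processing ADAMTS genes encode the enzymes that remove the amino-terminal propeptide of fibrillar procollagens. Adamts2 had a difference of -0.23 (SE 0.22, limma adjusted p = 0.788) and Adamts3 one of -0.27 (SE 0.25, limma adjusted p = 0.770). Adamts14 went the other way, with a difference of 0.46 (SE 0.31, limma adjusted p = 0.655). Its highest Wsh array was again replicate 2, at 0.30 with the next at -0.82, and without that array the difference was 0.22.

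Among the other ADAMTS genes, Adamts10 and Adamts6 had the smallest p. The product of Adamts10 is known for its part in fibrillin microfibrils. Adamts10 had levels of -1.99, -1.60 and -1.31 (lowest, median and highest) in Wsh tumours, against -1.55, -1.33 and -1.17 in B6 tumours. Of the Wsh arrays, 4 lay below every B6 array, and 3 B6 arrays lay above every Wsh array. The mean was 1.25-fold lower in Wsh (log2 difference -0.32, SE 0.11, 95% interval -0.54 to -0.09), with an unadjusted limma p of 0.00932 and a limma adjusted p of 0.289. This value belongs to 1 probe, at chr17:33690213-33690272 on the plus strand (mm9). The other 3 kept probes gave -0.06, -0.13 and 0.26, and the mean of the 4 probes gave -0.06 (limma adjusted p = 0.903).

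Adamts6, a close relative of Adamts10, was near background, above it on 6 Wsh and 5 B6 arrays. Its levels were -5.28, -3.92 and -3.45 (lowest, median and highest) in Wsh, against -6.03, -4.61 and -4.07 in B6. Of the Wsh arrays, 6 lay above every B6 array, and the exception was replicate 5, the lowest Wsh array at -5.28. The difference was 0.75 (SE 0.30, 95% interval 0.13 to 1.38), with an unadjusted limma p of 0.0219 and a limma adjusted p of 0.378. With normexp background correction it was 0.42 and in the authors' deposited values 0.43. Within slide 1 it was 1.07 and within slide 2 it was 0.36.

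The other 4 had intervals that included 0. Adamts7 had a difference of 0.16, Adamts12 of -0.31, Adamts17 of -0.09 and Adamts18 of -0.36, with limma adjusted p between 0.846 and 0.967. The other kept Adamts17 probe gave 0.67. Adamts18 had the kept probes that disagreed most. They gave -0.36, 0.12 and 0.90, although each correlated with the main one across arrays (lowest r = 0.77). On B6 replicate 4 the main probe was at 0.49, its highest value, while the other kept probes were at -2.81 and -2.88.

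TIMP genes were all measured, and Timp4 had the highest difference of all 34 genes. Timp4, a TIMP known from heart, muscle and fat, had levels of -3.09, -2.51 and -0.43 (lowest, median and highest) in Wsh tumours, against -7.20, -3.94 and -0.77 in B6 tumours. Of the B6 arrays, 6 lay below every Wsh array, while replicates 4 and 7 lay within the Wsh range. The mean was 3.91-fold higher in Wsh (log2 difference 1.97, SE 0.75, 95% interval 0.37 to 3.56), with an unadjusted limma p of 0.0188 and a limma adjusted p of 0.366. The other kept probes gave 1.07 and 1.12. The part of fat and muscle content in this difference was not tested, and the marker means are given beside it. The mean of the 12 adipocyte markers, all measured, ranged from 0.24 to 3.08 in Wsh and from -2.41 to 3.34 in B6 (means 1.55 and 0.88), and the mean of the muscle markers was 0.11 in Wsh and -3.03 in B6. With both marker means as covariates the Timp4 difference was 1.34 (limma adjusted p = 0.0812), and without the 5 arrays with muscle transcripts it was 1.68 (limma adjusted p = 0.708). With normexp background correction it was 1.22, within slide 1 it was 2.62 and within slide 2 it was 1.20.

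The other TIMP genes differed by less than the spread between tumours. Timp1, the inducible TIMP, averaged 1.92 ± 0.43 in Wsh (SD, n = 7) and 1.55 ± 0.42 in B6 (SD, n = 8), a difference of 0.37 (95% interval -0.08 to 0.81, limma adjusted p = 0.590). Timp2, which also takes part in activating the Mmp2 precursor, had the most even levels of the 4, within 1.75-fold over all 15 arrays, and a difference of 0.03 (SE 0.15). Timp3, the matrix-bound TIMP, had a difference of -0.06 (SE 0.22), and 3 B6 arrays lay above every Wsh array. A Timp3 probe at chr10:85769407-85769466 (mm9, plus strand), which lies apart from the other Timp3 probes, ran against the main probe across arrays (r = -0.64) and gave 0.50.

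**Figure D3:**
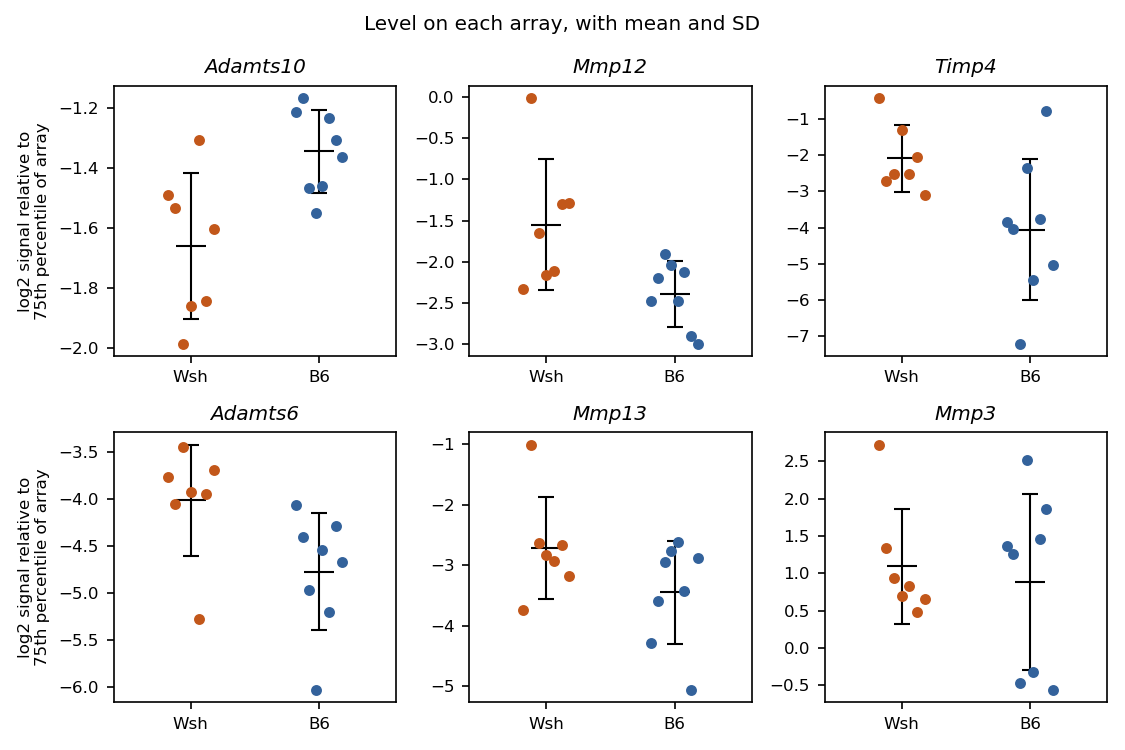
Log2 signal relative to the 75th percentile of the array, 1 point per array, for Adamts10, Mmp12, Timp4, Adamts6, Mmp13 and Mmp3, with Wsh (7 arrays) left of B6 (8 arrays) and bars for mean and SD. Groups overlap in every panel, the highest Mmp12 and Mmp13 values are both of Wsh replicate 2, and B6 tumours span the wider range for Timp4 and Mmp3.

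Tumours of the same background differed more in these genes than in most others. The median SD within groups was 0.61 over the 34 genes and 0.30 over all tested genes. Over genes above background on all 15 arrays it was 0.50 (26 genes) and 0.27 (18599 genes), and with normexp background correction 0.55 and 0.26. The widest were Mmp9 (SD 1.62), Timp4 (1.56), Adamts18 (1.40), Mmp25 (1.07), Adamts5 (1.07), Mmp7 (1.02), Mmp3 (1.01) and Mmp19 (0.87). Of these, Mmp9, Mmp25, Adamts5 and Mmp7 were not well above background on several arrays, and Timp4 on 1, so that their SD includes values near background. Adamts18, Mmp3 and Mmp19 were above background on every array. Between the lowest and the highest tumour, Adamts18 spanned 59.8-fold, Mmp3 9.75-fold and Mmp19 6.30-fold. The highest Adamts18 value (B6 replicate 4, at 0.49) was that of its main probe, and its other kept probes were at -2.81 and -2.88 there. The most even were Adamts10 (0.19) and Mmp28 (0.20).

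Some of these genes varied together with markers of stromal cells, while 19 of the 34 showed no relation that passed. Each of the 34 genes was correlated with the mean of 13 lists of cell type markers over the 15 arrays after removing group means, and p was adjusted over all tested genes and lists. Of 442 combinations, 40 passed an adjusted permutation p of 0.05 for Pearson's r (9.05%, against 4.87% over all genes), and 19 passed for both r and Spearman's rho (4.3%, against 2.81%). At least 1 list passed for 15 of the 34 genes (44.1%, against 26.9% of all genes), and none passed for the other 19. Fibroblast markers passed with 8 genes positively and 1 negatively (26.5%, against 8.51% of all genes), macrophage markers with 7 and 1 (23.5%, against 9.59%), adipocyte markers with 7 and 1 (23.5%, against 9.91%), and endothelial markers with 6 and 0 (17.6%, against 12.3%). Mast cell and basal markers passed with 3 genes each, all positively (8.82%, against 4.24% and 1.12% of all genes). Among Wsh arrays, Mcpt4 and Cpa3 were above background on 0 and Cma1 on 1, so the mast cell list is no measure of mast cells there. Keratinocyte, B and plasma cell, and T cell markers passed with 1 gene each, all positively (2.94%, against 1.55%, 5.0% and 5.24% of all genes). Neutrophil, luminal epithelial, skeletal muscle and chondrocyte markers passed with none. The stromal lists were themselves related over these arrays (r between 0.69 and 0.82 among fibroblast, macrophage, adipocyte, endothelial and mast cell lists). The endothelial list was also related to the T cell list (r = 0.82) and to the B and plasma cell list (r = 0.79). The relations of genes with lists therefore do not tell which cells carried a transcript.

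Mmp3, Timp4, Mmp23, Mmp19 and Adamts5 followed stromal markers most closely. Mmp3 followed macrophage markers (r = 0.93, rho = 0.93, permutation p = 1e-05 for both, the smallest that 100000 permutations can give, adjusted p = 0.00235 and 0.00399). Its r was 0.96 and 0.89 within slides 1 and 2, and 0.91 without B6 replicates 3 and 4, the arrays farthest from the median. Timp4 followed adipocyte markers (r = 0.93, rho = 0.86, permutation p = 1e-05 and 0.0001, adjusted p = 0.00235 and 0.012), with r = 0.95 and 0.93 within slides 1 and 2 and 0.86 without B6 replicates 3 and 7. Both relations held within each slide.

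Mmp23, a membrane-anchored enzyme, followed fibroblast markers (r = 0.89, rho = 0.91, permutation p = 1e-05 and 2e-05, adjusted p = 0.00235 and 0.0054), with r = 0.88 and 0.93 within slides and 0.90 without Wsh replicate 2 and B6 replicate 3. Mmp19 followed adipocyte markers (r = 0.89, rho = 0.87, permutation p = 1e-05 and 6e-05, adjusted p = 0.00235 and 0.00912), with r = 0.85 and 0.94 within slides and 0.88 without B6 replicates 3 and 7. Adamts5 followed macrophage markers (r = 0.91, rho = 0.86, permutation p = 1e-05 and 0.00013, adjusted p = 0.00235 and 0.0137), with r = 0.93 and 0.84 within slides and 0.83 without B6 replicates 3 and 4. Mmp9, not well above background on 7 of 15 arrays, followed endothelial markers (r = 0.87, rho = 0.79, permutation p = 7e-05 and 0.0007, adjusted p = 0.00682 and 0.0329), with r = 0.86 and 0.83 within slides and 0.74 without the 2 farthest arrays. Each of these genes varied with stromal markers on both slides.

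A few genes ran against stromal markers or with basal markers, Adamts8 passing for both r and rho and the others for r alone. Adamts8 was low where macrophage markers were high (r = -0.80, rho = -0.79, permutation p = 0.00045 and 0.00093, adjusted p = 0.0195 and 0.0379), with r = -0.94 and -0.75 within slides and -0.78 without B6 replicates 3 and 4. Adamts1 was low where fibroblast markers were high (r = -0.77, rho = -0.72, permutation p = 0.00089 and 0.0032, adjusted p = 0.0286 and 0.0705), with r = -0.91 and -0.76 within slides and -0.66 without Wsh replicate 2 and B6 replicate 3. Adamts17 followed basal and myoepithelial markers (r = 0.84, rho = 0.71, permutation p = 8e-05 and 0.0042, adjusted p = 0.00735 and 0.0817), with r = 0.78 and 0.91 within slides and 0.68 without Wsh replicate 5 and B6 replicate 3. So did Timp3 (r = 0.74, rho = 0.74, permutation p = 0.0018 and 0.0025, adjusted p = 0.0423 and 0.063), with r = 0.74 and 0.69 within slides and 0.82 without the same arrays, and Adamts7 (r = 0.75, rho = 0.75, permutation p = 0.0013 and 0.0018, adjusted p = 0.035 and 0.0532), with r = 0.87 and 0.63 within slides and 0.62 without them. The signs for Adamts8 and Adamts1 were opposite to those of Mmp3 and Timp4.

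**Figure D4:**
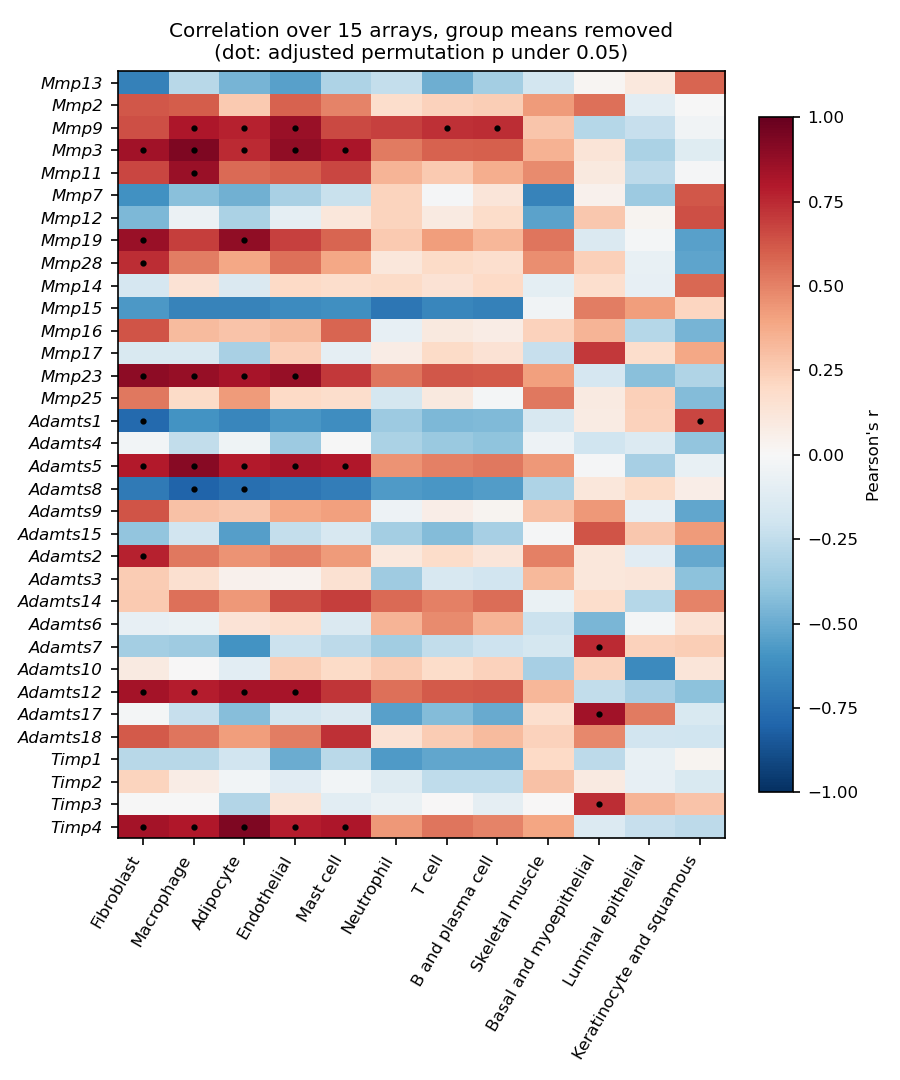
Pearson's r of each tested gene (rows, by role) with the mean of each marker list (columns) over 15 arrays after removing group means, from -1 (blue) to 1 (red), with a dot where the adjusted permutation p was under 0.05. Red cells with dots lie under fibroblast, macrophage, adipocyte and endothelial markers for Mmp3, Mmp23, Adamts5, Adamts12 and Timp4, and blue ones under macrophage and adipocyte markers for Adamts8. The chondrocyte and bone list, which had no dot, is left out.

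**Figure D5:**
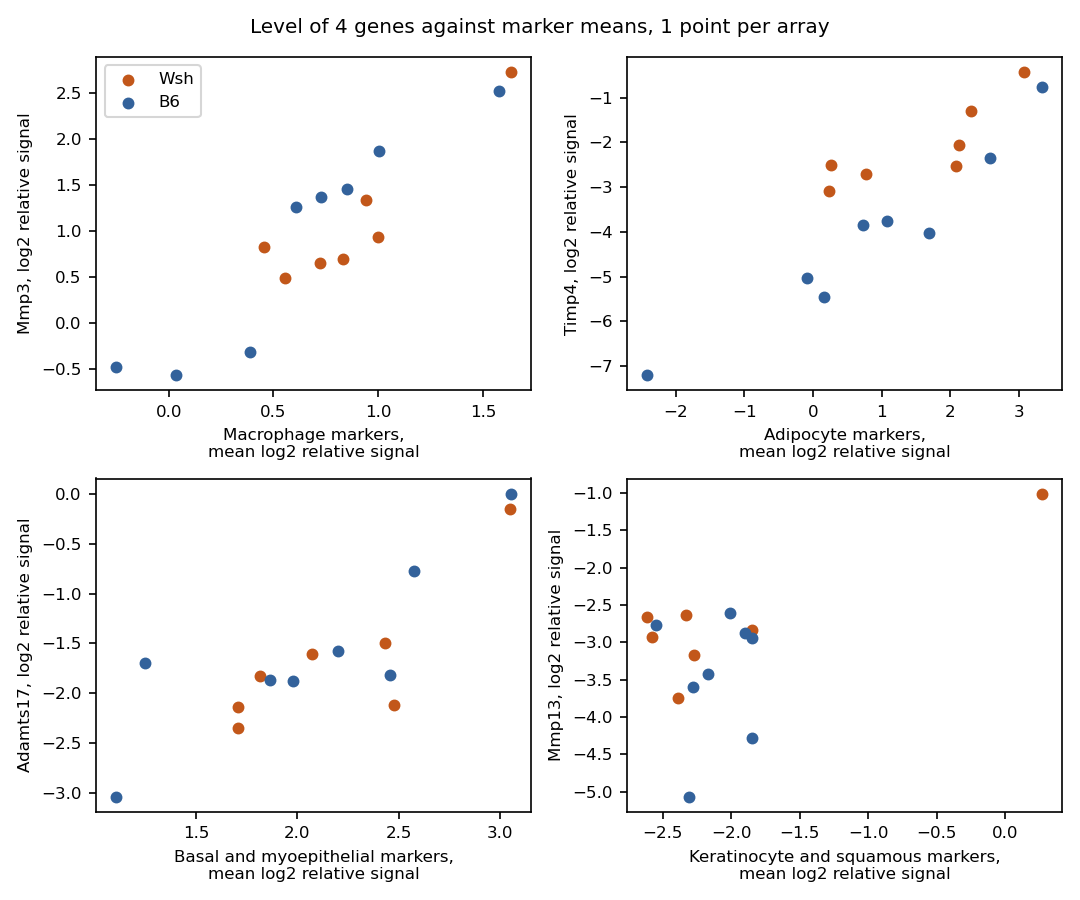
Log2 relative signal of Mmp3, Timp4, Adamts17 and Mmp13 (vertical axes) against the mean of macrophage, adipocyte, basal and keratinocyte markers (horizontal axes), 1 point per array, Wsh in orange and B6 in blue. The first 3 panels rise together over both groups, while in the Mmp13 panel Wsh replicate 2 lies alone at the upper right.

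For Mmp13, Mmp12 and Mmp7 no relation with keratinocyte markers passed, and r was lower without Wsh replicates 2 and 6. Replicate 2 was not left out on its own here. The r of these genes was 0.58, 0.65 and 0.62 (permutation p = 0.031, 0.032 and 0.016, adjusted p = 0.197, 0.20 and 0.136) over 15 arrays, the rho was 0.31, 0.21 and 0.36, and the r was 0.24, 0.13 and 0.35 without Wsh replicates 2 and 6. Only Adamts1 passed with this list (r = 0.67, rho = 0.81, permutation p = 0.00044 for both, adjusted p = 0.0193 and 0.0261), and its r was 0.70 without those arrays and 0.66 and 0.73 within slides.

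Mast cell transcripts varied among B6 tumours. The mean of the mast cell markers (7 of 13 measured, with Mcpt1, Mcpt2, Mrgprb1, Mrgprb2 and Tpsab1 above background on no array) ranged from -4.59 to -3.85 in Wsh and from -3.06 to -0.02 in B6. Over the 8 B6 arrays alone, in an analysis added after the data were seen, 6 of the 34 genes passed an exact permutation p of 0.05 adjusted over all genes with the mast cell list (17.6%, against 3.78% of all genes), 5 of them positively and Adamts1 negatively. Mmp3 had an r of 0.95 and Timp4 one of 0.93 (exact permutation p = 0.00069 and 0.00072, adjusted p = 0.0337 and 0.0339, n = 8), while for rho the adjusted p was 0.0964 and 0.0793. Only Mmp19 passed for both r and rho (r = 0.92, rho = 0.95, exact permutation p = 0.0014 and 0.0011, adjusted p = 0.0439 and 0.0479). Without the 2 farthest arrays, r was 0.91 for Mmp3, 0.90 for Timp4 and 0.94 for Mmp19. The 4 B6 arrays a slide were too few for values within slides. In the same arrays the mast cell list followed the fibroblast list at r = 0.97 and the macrophage list at r = 0.93. Mmp3 and Mmp19 followed fibroblast markers at r = 0.99 and 0.88. Mast cell markers and stromal content cannot be told apart among these 8 tumours.

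Known partners within the family gave no relation that passed. Of 12 pairs of enzyme and activator, enzyme and inhibitor or close relatives, 9 could be computed, with p adjusted over the 9. Mmp12 and Mmp13, neighbours on chromosome 9, gave r = 0.66 and rho = 0.49 (permutation p = 0.0085 and 0.064, adjusted p = 0.076 and 0.33), with r = 0.89 within slide 1 and 0.16 within slide 2. That relation rested on 2 arrays, since r was 0.31 without Wsh replicates 1 and 2. Mmp14 and Mmp2 gave r = 0.33 and rho = 0.35, and Mmp2 and Timp2 r = 0.45 and rho = 0.35 (adjusted permutation p for r = 0.50 and 0.41). Mmp9 and Timp1, whose products bind each other, gave r = -0.28 and rho = -0.11 (adjusted permutation p for r = 0.52). Mmp3 and Mmp13, which both lie in the chromosome 9 block, gave r = -0.40 and rho = -0.40 (adjusted permutation p for r = 0.43). The other 4 had r between -0.24 and 0.23. Within groups, Adamts2 and Adamts14 gave r = 0.92 in B6 and -0.20 in Wsh, and Mmp14 and Timp2 -0.64 and 0.37. Adamts4 had a negative r with Adamts1 and with Adamts5 in both groups. These values within groups were not tested.

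Genes that act with these proteases and inhibitors were counted against the same threshold, which 0.336% of all genes passed. Of the plasminogen activation list, which holds the system that can activate Mmp precursors, 8 of 10 genes were tested, 0 passed and the median difference was 0.13. Of other matrix-degrading and shedding proteases, 20 of 23 were tested, 0 passed and the median was 0.05. Adam8, a leukocyte and tumour sheddase, had the smallest p of that list (difference 0.76, SE 0.27, limma adjusted p = 0.313). Of Mmp partners and inhibitors other than TIMPs, 20 of 21 were tested and 0 passed. At an unadjusted limma p under 0.05, 4 were higher and 1 lower in Wsh, against 4.66% and 5.71% of all genes. Among those, the ADAMTS-like gene Adamtsl3, which has no protease domain, had the highest difference (1.70, SE 0.42, limma adjusted p = 0.124). Its mean was -3.85 in Wsh and -5.55 in B6. Adamtsl2 (0.91), the proprotein convertase Pcsk6 (0.52) and Spock3 (0.35) followed, while Spock1 had -0.27. Of matrix proteins cut by these enzymes, 22 of 23 were tested and 0 passed. Of the 22, 6 lay above 0 (against 48.2% of all genes) and the median was -0.11 (-0.01 over all genes).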

How the data were processed

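Per the labels' protocols, RNA of each tumour was amplified with Cy3 as its label, and each tumour had its own Agilent array. Per the file headers, the deposited intensity came from Feature Extraction 10.7.3.1, was background-subtracted and detrended, and was not normalized between arrays. The authors' deposited log2 values of these arrays served as an alternative, and how they were normalized is not given in the sources used here. The values used were log2 of the processed intensity minus the array's 75th percentile over non-control spots. A probe entered when it was detected above background on at least 7 of 15 arrays, by a flag column that the same deposited files hold (its unit is other), and the kept probe of highest mean represented its gene. Groups were compared two-sided in limma 3.58.1 (R 4.3.3), with Benjamini-Hochberg adjustment over 22342 genes and a threshold of 0.05. Correlations used 100000 permutations, or all of them for 8 arrays. Those with markers were run for the 22307 genes with values on all arrays and adjusted over all genes and lists, leaving each list's own genes out. This wider adjustment was chosen after seeing the data. The planned one, over the 442 combinations of the 34 genes alone, passed 54 for r and 35 for r and rho, in place of 40 and 19. Probe coordinates are those of the files (mm9), without exon annotation. The promoters are RefSeq's (GRCm38.p6).

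Members, gene lists and pairs were chosen with earlier results of these data known. Named genes were any past the threshold, the 10 largest moderated t, the 8 widest, all TIMPs, the pairs and the gene whose probes disagreed most, with others added to complete a role. The steps were tested on simulated data for this comparison of 22342 genes. They recovered 96% of genes changed by a log2 of 2 and 72% of those changed by 1. The 34 genes vary more within groups (median SD 0.61, against 0.30 over all genes), so these shares need not hold for them. Other settings were normexp background with an offset of 50, quantile and median scaling, no filter, a filter on all 15 arrays, the mean of probes, slide, replicate block, array weights, the deposited values, marker covariates and each array left out. Same-numbered Wsh and B6 arrays deviated from their group means with r between -0.24 and 0.21, and 1 of 7 numbers exceeded 0.1, so numbers were not taken as pairs.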

Additional observations from a re-analysis of the deposited data

Results flagged for a closer look

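Dixon's criterion was applied to both ends of each group, 68 groups in all over the 34 tested genes, and 8 values on 4 arrays stood apart. Chance flags about 1 in 20 groups if values are normal and groups independent. Several of these values share an array, and the criterion was not run on other genes. Whether other genes would give as many was not tested. In Wsh replicate 1, Mmp3 was at 2.72, with the next highest Wsh array at 1.34, Mmp23 at -0.36 (next -1.91) and Adamts12 at -0.045 (next -1.39). In Wsh replicate 2, Mmp13 was at -1.01 (next -2.63) and Adamts14 at 0.30 (next -0.82). In Wsh replicate 5, Adamts17 was at -0.15 (next -1.50), and Adamts6 was lowest at -5.28 (next lowest -4.06). In B6 replicate 4, Mmp11 was at 0.21, with the next highest B6 array at -0.87. Among Wsh arrays, replicate 1 had the highest fibroblast (3.72) and macrophage (1.63) markers, replicate 2 the highest keratinocyte and squamous markers (0.27) and replicate 5 the highest basal markers (3.05). Among B6 arrays, replicate 4 had the highest fibroblast (3.72) and macrophage (1.57) markers. The part of these markers in the values was not tested.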

How the results depend on the processing

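None of the member genes passed in limma under any of the 29 alternatives. The counts and medians given here cover the member genes that each setting tested. These were 26 with the filter on all 15 arrays, which left out Timp4 and Adamts6, and 46 with no filter. The number at an unadjusted p under 0.05 was 4, and it was 2 with the filter on all 15 arrays, the mean of probes, slide 1 alone and slide 2 alone (4 to 5 with 1 array left out), 5 with no filter, the replicate block and marker covariates, and 6 with array weights. The median difference of the member genes was 0.12 and lay between -0.05 and 0.16 in these settings. The count over all genes was 75 (24 higher, 51 lower in Wsh). It was 25 with no filter (14 and 11), 4 on slide 1 (2 and 2), 1 on slide 2 (1 and 0), 15 with the replicate block (7 and 8), 153 with array weights (65 and 88) and 126 with marker covariates (49 and 77). It was 24 (8 lower) when the 5 arrays with muscle transcripts were left out, a setting chosen after seeing the data. There were 13 higher with median scaling, which moved the median of all genes to -0.11, and 33 lower with slide as a block. With 1 array left out the count was 25 to 76 (12 to 24 higher, 13 to 52 lower), and it stayed within 1.5 times of 75 only without Wsh replicate 1, Wsh replicate 5 or B6 replicate 7. The cause of these changes was not tested. No number paired the arrays, since 0 of 7 Wsh arrays correlated best with their own number, and the replicate block gave no call among the 34. Of the 34 genes' differences, these changed sign, none past the threshold. With normexp background, Adamts5 was -0.0029 and Mmp14 -0.0030. With quantile normalization, Mmp14 was -0.0060. With median scaling, Adamts1 was -0.015, Timp2 -0.067, Mmp2 -0.044 and Mmp14 -0.091. With the mean of probes, Adamts18 was 0.22, Timp3 0.14, Adamts17 0.29 and Timp2 -0.10. With slide as a block, Mmp14 was -0.0086. With slide 1 alone, Adamts7 was -0.29, Adamts9 -0.066, Mmp2 -0.060, Mmp9 0.47 and Mmp23 0.13. With slide 2 alone, Adamts3 was 0.0099, Adamts18 0.86, Mmp19 -0.16, Adamts5 -0.23, Adamts1 -0.38, Adamts8 0.31, Adamts17 0.40, Timp2 -0.097 and Mmp14 -0.13. With the replicate block, Mmp3 was -0.0026, Mmp2 -0.065 and Mmp14 -0.069. With array weights, Mmp15 was 0.040, Mmp7 -0.093, Mmp3 -0.20 and Mmp2 -0.033. With the deposited values, Mmp14 was -0.027. With marker covariates, Mmp11 was -0.036, Mmp19 -0.28, Adamts5 -0.24, Mmp3 -0.15, Adamts8 0.13, Timp2 -0.055 and Mmp2 -0.20. With those 5 arrays left out, Adamts9 was -0.14, Adamts18 0.075, Mmp19 -0.23, Adamts1 -0.067, Timp2 -0.096 and Mmp2 -0.16. With 1 array left out the ranges were Mmp19 -0.012 to 0.42, Mmp3 -0.066 to 0.44, Adamts8 -0.25 to 0.077, Timp2 -0.028 to 0.11, Mmp2 -0.080 to 0.24, Mmp7 -0.12 to 0.44, Adamts1 -0.093 to 0.24, Mmp14 -0.13 to 0.16, Mmp23 -0.26 to 0.12, Mmp9 -0.55 to 0.29, Adamts9 -0.030 to 0.29, Timp3 -0.17 to 0.060, Adamts17 -0.34 to 0.14, Adamts5 -0.062 to 0.47 and Adamts18 -0.77 to 0.075. Signal over background limits what can be said of genes near background.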
